A study of Mus musculus with 30 samples.

Results

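The vessels of the cerebellum were set against the vessels of the cerebrum in mice with intact PDGF-B signalling. The comparison used 8 of the series' 30 Affymetrix arrays, 4 of cerebellum and 4 of cerebrum, chosen by their titles and paired by the replicate number that the titles carry. It was made over 11243 of 18194 genes, each read by 1 probe set, namely those above 4 on the log2 scale on at least 3 arrays of the series. All 8 samples were microvascular fragments, short lengths of brain vessel freed from the tissue that keep their endothelium and attached mural cells. The mice were R26P+/0, pdgfb+/+, that is, wild type for Pdgfb with 1 silent copy of a human PDGF-B transgene in the Rosa26 locus, and had a mixed C57/SV129 background. The labels give their age as 1 year in the titles and as 2 months in another field, and this conflict was not resolved. Pair 1 came from males and pairs 2 to 4 from females, and the labels call the arrays biological replicates without saying that both regions of a number came from the same animal. Beside them stand 8 arrays of R26P mutants (Tie2Cre, R26P+/0, pdgfb-/-, in which a Cre active in endothelium switches the transgene on; same background and same conflict of ages) and 6 arrays of 2-month-old wild-type mice (C57/B6/J, Notch3+/+), in each case the same number from either region.

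A brain capillary is a tube of endothelial cells joined by tight junctions, wrapped by pericytes in a shared basement membrane and covered by the end-feet of astrocytes. Arterioles carry smooth muscle, and larger vessels are sheathed by fibroblasts and visited by macrophages. Cerebrum and cerebellum arise from different parts of the neural tube, and mural cells of the forebrain descend in large part from the neural crest. The comparison asks whether vessels and the cells that travel with them carry different RNA in one region than in the other.

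Several checks of the arrays come before the results. Between 42.3% and 42.7% of probe sets exceeded 4 on each of the 8 arrays, and arrays correlated at 0.981 to 0.991 within cerebellum and at 0.981 to 0.989 within cerebrum. Xist, the RNA that coats the inactive X chromosome, was at 2.16 in cerebellum and 2.32 in cerebrum of pair 1, the male pair, and at 12.13 to 12.56 on the other 6 arrays, so the sex labels held. Gabra6, a GABA receptor subunit of cerebellar granule cells, read 4.69, 3.70, 4.96 and 4.83 in cerebellum 1 to 4, against 2.16, the lowest value an array can take, on each cerebrum array. By this gene the region labels held as well. Pan-endothelial genes were bright throughout: the mean log2 signal of 26 of them lay between 12.70 and 13.01 in cerebellum and between 12.88 and 13.08 in cerebrum.

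Cerebrum arrays 2 and 3 stood apart because they carried high levels of hormone transcripts of the pituitary gland. Growth hormone (Gh) read 2.18, 2.85, 2.17 and 2.22 in cerebellum, against 4.83, 14.19, 14.58 and 2.66 in cerebrum. Prolactin (Prl) was at 2.16 on each cerebellum array, against 2.16, 14.52, 14.35 and 2.24 in cerebrum. The common subunit of the glycoprotein hormones, Cga, read 2.78 on each cerebellum array, against 4.99, 13.63, 13.24 and 6.58 in cerebrum. The mean over the 7 pituitary genes tested was 3.15 to 3.36 in cerebellum and 3.70 to 9.54 in cerebrum, and 0 of the 7 passed in limma (2 of 7 at an unadjusted p under 0.05). Markers of choroid plexus and ependyma, the epithelia of the ventricles, leaned the other way. Their mean over 12 genes was 11.97, 11.92, 10.48 and 11.22 in cerebellum 1 to 4, against 9.45, 10.68, 9.68 and 10.24 in cerebrum, so cerebellum was higher in each pair and most of all in pair 1. The part of either tissue in the results below was not tested.

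**Figure D1:**
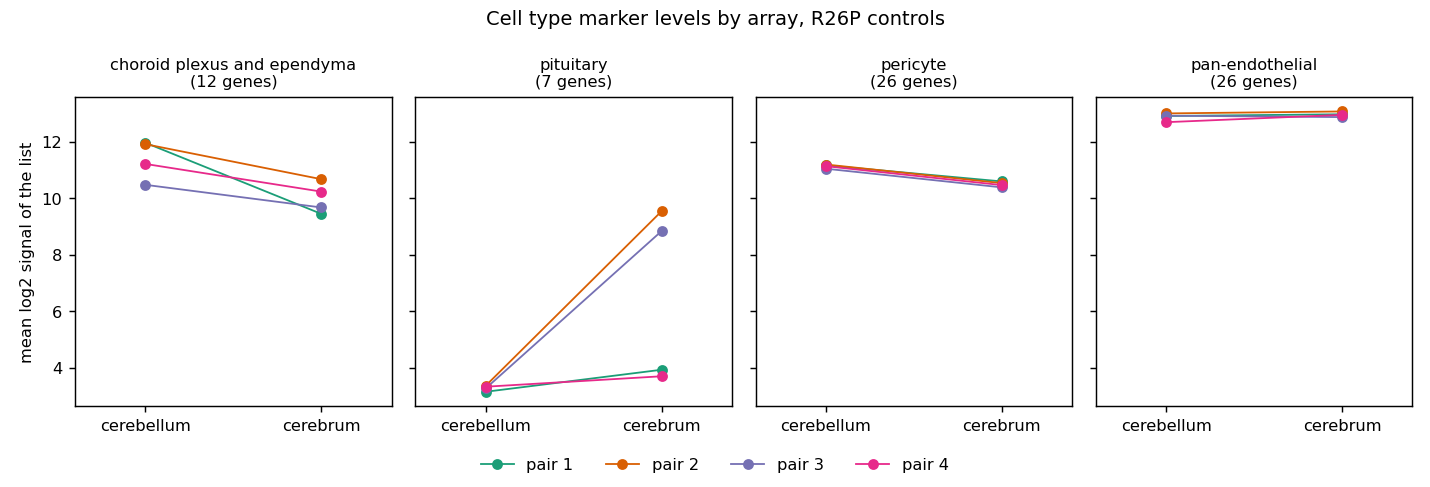
Mean log2 signal of 4 marker lists on each array (y axis), cerebellum left and cerebrum right, with a line joining the arrays of a pair. Pituitary genes reached 9.54 and 8.84 in cerebrum 2 and 3, choroid plexus and ependyma genes and pericyte genes were higher in cerebellum in each pair, and pan-endothelial genes lay between 12.70 and 13.08 on all arrays.

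In limma with the pair as a block and Benjamini-Hochberg adjustment over all genes tested, 475 genes passed an adjusted p of 0.05, which is 4.22% of the genes. Of these, 349 were higher in cerebellum (3.10% of genes tested) and 126 were lower (1.12%). The median log2 change over all genes was 0.03. Each of the 475 moved the same way in all 4 pairs. With so few pairs the threshold nearly requires this, so it adds no support. Of the 475, 303 had groups that did not overlap, and 192 differed at least 2-fold (136 higher and 56 lower). Groups did not overlap for 913 genes, or 8.12%, irrespective of the test. The number of genes passed depended on the pairs: without pair 4 there were 37, without pair 2 there were 91, without pair 1 there were 130 and without pair 3 there were 159, and the same model without the block gave 132. Without pairs 2 and 3, whose cerebrum arrays carried the high pituitary signal, 0 genes passed in limma and 1491 had an unadjusted p under 0.05. All 475 genes kept their direction in each of these fits, which follows from all 4 pairs having moved the same way. In a bulk sample a lower signal can mean fewer cells of a type or less RNA per cell, and these cannot be told apart.

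**Figure D2:**
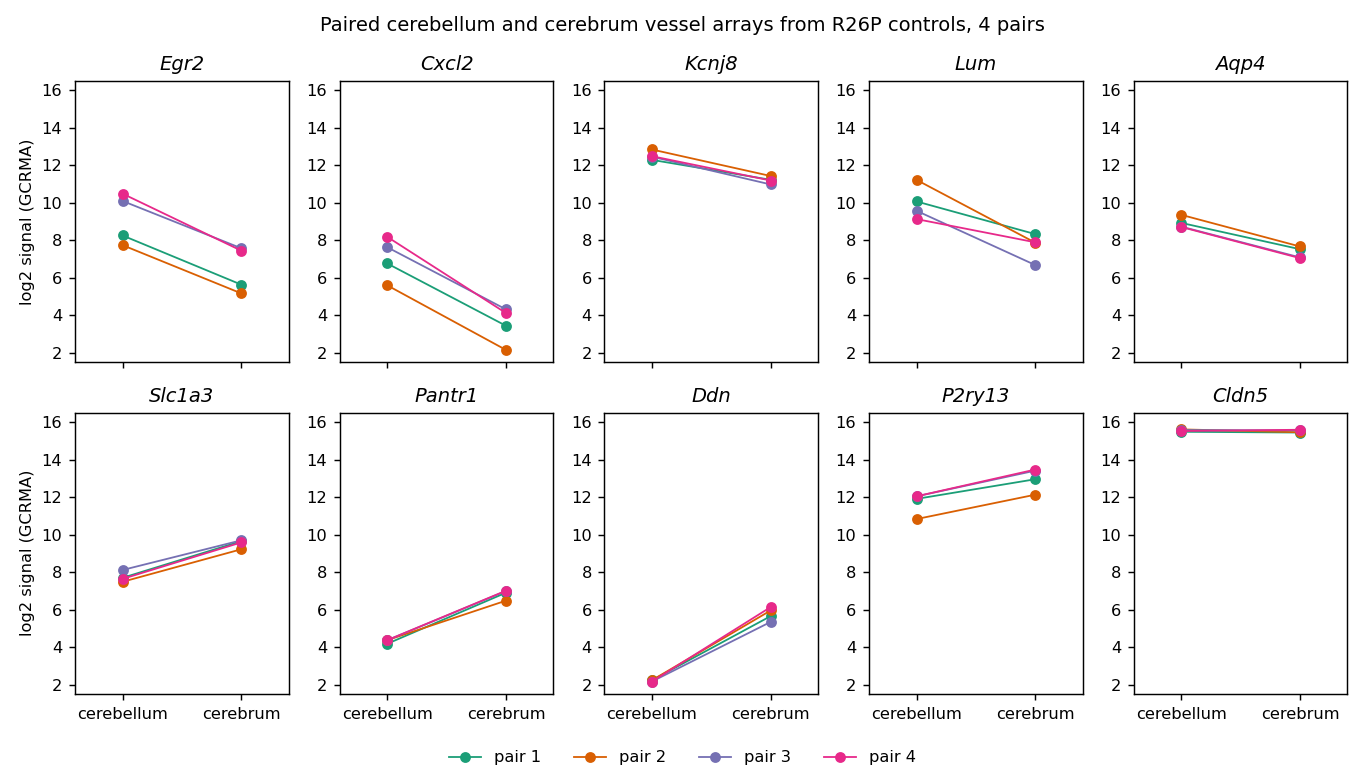
Log2 signal of 10 genes (y axis) on each array, cerebellum left and cerebrum right, with a line joining the arrays of a pair. Egr2, Cxcl2, Kcnj8, Lum and Aqp4 were higher in cerebellum in all 4 pairs, Slc1a3, Pantr1, Ddn and P2ry13 were lower, and the endothelial tight junction gene Cldn5 lay between 15.44 and 15.61.

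Pericyte genes were higher in cerebellar vessels. Of 26 tested pericyte genes, 19 rose in cerebellum, 0 fell and 7 did not pass, against 4.22% of all genes, and the median log2 change was 0.69 (0.60, 0.56, 0.71 and 0.76 in pairs 1 to 4). The mean of the list was 11.17, 11.20, 11.05 and 11.14 in cerebellum, against 10.60, 10.54, 10.39 and 10.47 in cerebrum, with no overlap.

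The ATP-sensitive potassium channel of brain pericytes is built from a pore subunit, Kcnj8, and a sulphonylurea receptor, Abcc9, which are neighbours on chromosome 6. Kcnj8 read 12.30, 12.85, 12.46 and 12.49 in cerebellum, against 11.23, 11.44, 10.98 and 11.20 in cerebrum, and was 2.49-fold higher (log2 change 1.31 ± 0.09 (SE), adjusted p = 0.00553). Abcc9 read 13.53, 13.71, 13.61 and 13.58 in cerebellum, against 12.68, 13.04, 12.62 and 12.39 in cerebrum, and was 1.90-fold higher (adjusted p = 0.0163). Both subunits of the channel were thus higher on each cerebellum array than on any cerebrum array. Their promoter windows, 300 bases across the start site (RefSeq, GRCm38.p6), are shown because the pair moved together.
Kcnj8, chr6:142571565-142571864, minus strand: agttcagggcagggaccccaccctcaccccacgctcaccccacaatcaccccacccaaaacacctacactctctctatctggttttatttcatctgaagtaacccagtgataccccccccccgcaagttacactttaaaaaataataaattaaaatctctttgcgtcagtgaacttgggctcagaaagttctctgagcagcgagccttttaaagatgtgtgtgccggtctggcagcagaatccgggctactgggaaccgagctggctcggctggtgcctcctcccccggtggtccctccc
Abcc9, chr6:142702225-142702524, minus strand: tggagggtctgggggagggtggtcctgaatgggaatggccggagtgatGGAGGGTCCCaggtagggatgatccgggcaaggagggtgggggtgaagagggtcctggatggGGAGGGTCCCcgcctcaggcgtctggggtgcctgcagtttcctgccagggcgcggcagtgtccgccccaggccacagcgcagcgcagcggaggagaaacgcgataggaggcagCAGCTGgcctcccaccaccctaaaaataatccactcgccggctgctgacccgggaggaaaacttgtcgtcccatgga
Capitals mark the letters searched on either strand: the homeodomain core TAATTA, the TCF core CTTTGAT, the E-box CAGCTG, the TATA box TATAAA, the cyclic AMP element TGACGTCA, the CArG box and the kappa-B site. The Abcc9 window held CAGCTG and 2 kappa-B sites and the Kcnj8 window held none of the 7, which says only that these letters are not in this window.

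Other pericyte genes that rose included Foxs1, a forkhead transcription factor, at 7.69 to 8.24 in cerebellum and 5.99 to 7.01 in cerebrum (2.49-fold, adjusted p = 0.0106). Art3, an ADP-ribosyltransferase family member, was at 11.83 to 12.36 in cerebellum and 10.79 to 11.05 in cerebrum (2.12-fold). Lama2, the alpha chain of a laminin of the vessel wall, was at 9.79 to 10.39 in cerebellum and 8.75 to 9.47 in cerebrum (2.08-fold, adjusted p = 0.00549). These groups did not overlap. Pdgfrb, the receptor through which endothelial PDGF-B recruits pericytes, read 13.34, 13.26, 13.47 and 13.43 in cerebellum, against 12.80, 12.93, 12.82 and 12.76 in cerebrum, a 1.46-fold rise (adjusted p = 0.0332). Notch3, a receptor that mural cells need, rose 1.60-fold and its target Heyl 1.42-fold. The list's remaining rises were Higd1b, Pla1a, Tbx2, Ednrb, Atp13a5, Ndufa4l2, Enpep, Cspg4, S1pr3, Zic1 and Vtn, at log2 changes of 0.46 to 1.05. Rgs5, a regulator of G protein signalling that is among the brightest pericyte genes, did not pass (log2 change 0.19, adjusted p = 0.176). It was at 15.18 to 15.36 in cerebellum and 15.07 to 15.13 in cerebrum, near the top of the scale. Its dimmer probe sets had log2 changes of 0.27, 0.51 and 0.86. Like Rgs5, the genes Des, Tbx18, Ebf1, Mcam, Grm3 and Gper1 did not pass (log2 changes of -0.14 to 0.47).
Without pair 4 the number of pericyte genes that passed was 0 of 26 with a median of 0.60, and without the replicate block it was 13. Pairs 1 and 4, free of the high pituitary signal, alone gave 0 passes, a median of 0.74 and 22 of 26 genes higher in cerebellum.

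**Figure D3:**
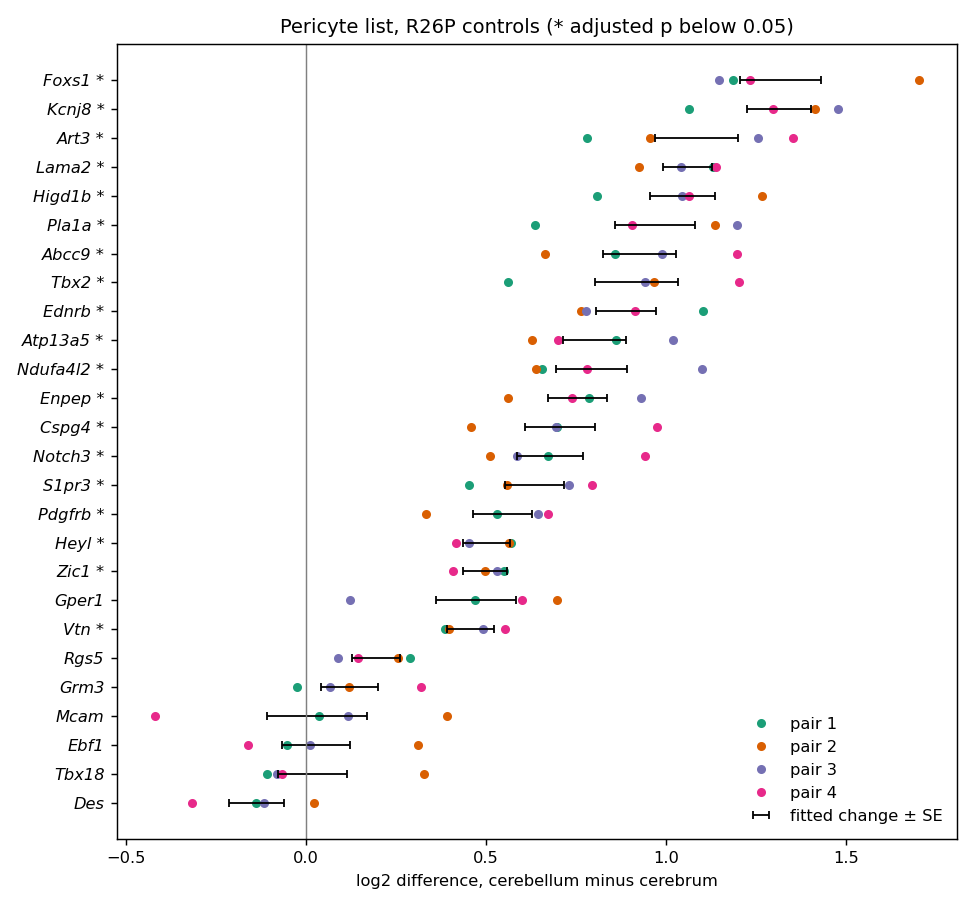
Log2 difference, cerebellum minus cerebrum (x axis), for the 26 tested pericyte genes (y axis). Coloured points are the 4 pairs, the black bar is the fitted change ± SE, and a star marks an adjusted p below 0.05. The points of the 19 starred genes lie right of 0 in all pairs.

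The contractile genes of smooth muscle gave a different count: 3 of 21 rose, 1 fell and the median log2 change was 0.08. Together 19.05% passed, against 4.22% of all genes. Casq2, a calcium-binding protein of the sarcoplasmic reticulum, read 11.71 to 12.02 in cerebellum and 10.55 to 10.88 in cerebrum (2.24-fold, adjusted p = 0.00553). Kcnmb1, the beta subunit of the large-conductance calcium-activated potassium channel, rose 1.63-fold, and the olfactory receptor gene Olfr558 read 3.02 to 4.12 in cerebellum and 2.55 on each cerebrum array (adjusted p = 0.0483). Synpo2, an actin-binding protein, fell (log2 change -0.48, adjusted p = 0.027). Acta2, the smooth muscle actin, differed by a log2 change of 0.07, Tagln by 0.08 and Myh11 by 0.15 (adjusted p = 0.611, 0.799 and 0.511). These last genes were named after their values had been seen.

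With 4.22% of all genes past the threshold, about as few were seen in the pan-endothelial and arterial lists. In limma, 0 of 26 pan-endothelial genes passed (5 at an unadjusted p under 0.05), with a median log2 change of -0.08, and 0 of 21 arterial genes passed (4 at an unadjusted p under 0.05), with a median of 0.02. Cldn5, the main claudin of the barrier, read 15.48, 15.61, 15.57 and 15.52 in cerebellum, against 15.44, 15.45, 15.55 and 15.59 in cerebrum (log2 change 0.04 ± 0.07 (SE)). The glucose carrier Slc2a1 differed by 0.04 ± 0.07, the endothelial adhesion molecule Pecam1 by -0.37 ± 0.13 (adjusted p = 0.18), Sox17 by -0.04 ± 0.07 and Esam by 0.11 ± 0.09, all on the log2 scale. Pdgfb, the growth factor that endothelium makes, was at 12.05 to 12.53 in cerebellum and 12.51 to 12.86 in cerebrum, a log2 change of -0.31 ± 0.08 that did not pass (adjusted p = 0.11). For venous and capillary genes, 3 of 20 fell and 0 rose. Ackr1, a chemokine-binding receptor of venules, read 9.03, 9.25, 10.86 and 9.94 in cerebellum, against 10.14, 10.35, 11.90 and 11.20 in cerebrum. It was lower in every pair (log2 change -1.13 ± 0.07, adjusted p = 0.00426), although the groups overlapped because pairs 3 and 4 were high in both regions. Lrg1, a secreted glycoprotein (log2 change -0.97), and Lcn2, a siderophore-binding protein (-0.67), fell with it.

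Of 29 barrier carriers and pumps, 1 rose and 1 fell, which is 6.90% and near the 4.22% of all genes. The shares for the Wnt, junction and sprouting lists below, 3.70%, 5% and 4.76%, were near it as well. Slc5a3, the sodium-coupled inositol carrier, was 1.80-fold higher (adjusted p = 0.0483), and Slc15a2, a peptide carrier, was lower (log2 change -0.73, adjusted p = 0.0264), whereas 2 further probe sets of Slc15a2 read 0.14 and 0.07 higher in cerebellum. Abcb4, a phospholipid flippase that is no member of the list, read 5.66, 4.61, 5.34 and 5.15 in cerebellum, against 6.67, 6.004, 7.12 and 6.98 in cerebrum (log2 change -1.51, adjusted p = 0.0145). The Wnt and Norrin list, the pathway that builds the barrier, had 0 rises and 1 fall among 27 genes. That gene was Dkk3, a member of the Dickkopf family of secreted proteins. It read 5.34, 5.31, 4.89 and 4.57 in cerebellum, against 6.87, 7.09, 6.44 and 6.21 in cerebrum (log2 change -1.63 ± 0.07, adjusted p = 0.00253, the smallest of the comparison, which 10 other genes shared). In the junction list 1 of 20 rose (Mpp7, a scaffold protein, 1.41-fold), and of 21 sprouting genes 1 rose, which was Lamb1.

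Matrix genes differed by chain. Of 31 basement membrane and matrix genes, 7 rose, 1 fell and the median log2 change was 0.12. Together 25.8% passed, against 4.22% of all genes. Lamb1, a laminin beta chain, read 9.25, 9.28, 8.48 and 9.01 in cerebellum, against 7.48, 7.67, 7.48 and 7.48 in cerebrum, and was 2.78-fold higher (log2 change 1.48 ± 0.14, adjusted p = 0.0119). Col4a4, a chain of the collagen IV network best known from kidney, read 8.92, 9.13, 8.57 and 8.48 in cerebellum, against 7.46, 8.07, 6.99 and 6.19 in cerebrum (3.03-fold, adjusted p = 0.0221). The ubiquitous chains Col4a1 and Col4a2 had log2 changes of 0.11 and 0.07 and did not pass. Collagen VI chains split in direction: Col6a2 read 4.00 to 4.53 in cerebellum and 2.69 to 3.67 in cerebrum (adjusted p = 0.032), whereas Col6a3 read 3.07 to 3.85 in cerebellum and 4.47 to 5.91 in cerebrum (log2 change -1.90, adjusted p = 0.0259). Col13a1, Lama2, Nid1 and Vtn were the other rises. Htra3, a secreted serine protease, read 4.60 to 5.36 in cerebellum and 6.16 to 6.78 in cerebrum (log2 change -1.48, adjusted p = 0.00312).

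Fibroblast and meningeal genes rose in part: 9 of 23 were higher and 0 fell (39.1%, against 4.22% of all genes), and the median log2 change was 0.43. Lum (lumican), a small proteoglycan that organises collagen fibrils, read 10.08, 11.23, 9.58 and 9.14 in cerebellum, against 8.34, 7.88, 6.69 and 7.90 in cerebrum (4.94-fold, adjusted p = 0.0386). Dcn (decorin), its relative, read 11.51 to 12.48 in cerebellum and 10.23 to 11.07 in cerebrum (2.37-fold, adjusted p = 0.0365). Igfbp2, which binds insulin-like growth factors, read 13.61, 13.46, 11.72 and 12.39 in cerebellum, against 10.83, 11.65, 10.48 and 11.15 in cerebrum (3.40-fold), and Igf2, one of these factors, rose 1.83-fold. Bmp5, a bone morphogenetic protein, rose 2.32-fold (8.68 to 8.94 in cerebellum and 7.23 to 8.14 in cerebrum), and Pdgfra, a receptor of fibroblasts and of oligodendrocyte precursors, rose 1.72-fold. Slc6a20a, Foxd1 and Islr were the remaining rises, and Col1a2 (0.55), Col3a1 (-0.10), Slc6a13 (-0.04) and Ptgds (-0.11) did not pass. Of the 23 genes 17 had a positive change, and the lowest log2 change was -1.96, which did not pass. Igf2 and Igfbp2 are also made by choroid plexus, whose markers were higher in each cerebellum array than in its partner, and their part here was not tested. Without pair 3 or without pair 4, 0 of the 23 genes passed.

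Immediate early genes, the transcription factors that cells switch on within minutes of a stimulus, were among the largest rises, and Fosb had the largest of all genes that passed. Of 25 immediate early and heat shock genes, 14 rose in cerebellum, 0 fell and 11 did not pass (56%, against 4.22% of all genes). The median log2 change was 0.70, and 0.54, 0.77, 0.91 and 0.85 in pairs 1 to 4. Fosb, a partner of Jun in AP-1, read 9.06, 6.67, 10.05 and 10.35 in cerebellum, against 5.11, 4.26, 6.20 and 6.01 in cerebrum, and was 12.4-fold higher (log2 change 3.64 ± 0.32, adjusted p = 0.0107). Egr2, a zinc-finger factor, read 8.26, 7.75, 10.10 and 10.49 in cerebellum, against 5.64, 5.18, 7.58 and 7.45 in cerebrum (6.44-fold, log2 change 2.69 ± 0.11, adjusted p = 0.00253). Pairs 3 and 4 were higher than pairs 1 and 2 in both regions, and the difference within a pair varied less than the level.
The windows across the start sites of these genes (RefSeq, GRCm38.p6) are shown because they led the list. Egr2 has several annotated starts, and the window printed is 1 of 5.
Fosb, chr7:19309996-19310295, minus strand: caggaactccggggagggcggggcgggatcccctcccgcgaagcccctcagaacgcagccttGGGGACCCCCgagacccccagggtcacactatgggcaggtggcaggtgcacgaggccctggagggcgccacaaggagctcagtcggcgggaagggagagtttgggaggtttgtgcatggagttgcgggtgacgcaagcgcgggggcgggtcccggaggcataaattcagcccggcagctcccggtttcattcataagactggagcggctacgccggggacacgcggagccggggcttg
Egr2, chr10:67537620-67537919, plus strand: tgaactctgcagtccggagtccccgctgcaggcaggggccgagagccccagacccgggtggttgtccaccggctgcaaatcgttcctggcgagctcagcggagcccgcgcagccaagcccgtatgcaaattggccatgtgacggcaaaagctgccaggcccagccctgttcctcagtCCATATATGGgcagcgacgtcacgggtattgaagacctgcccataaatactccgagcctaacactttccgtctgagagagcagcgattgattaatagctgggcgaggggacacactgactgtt
Capitals mark a kappa-B site in Fosb and, in Egr2, a CArG box, the motif bound by serum response factor. A CArG box was found in 5 of 28 windows of the immediate early and heat shock genes (17.9%), against 1.34% of 11777 windows of all genes tested. Of these 5 windows 4 belong to Egr2, and 3 of them hold the same letters, so the share rests on Egr2 and 1 other gene at most. This motif was chosen after values had been seen, and a match is a description of letters.

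Atf3, a stress-induced factor of the ATF family, read 11.88, 11.45, 13.16 and 13.03 in cerebellum, against 9.87, 10.68, 10.52 and 10.55 in cerebrum (3.93-fold, adjusted p = 0.0396). Junb read 12.20, 11.48, 12.40 and 12.35 in cerebellum, against 10.71, 9.65, 10.62 and 11.21 in cerebrum (2.95-fold, adjusted p = 0.0106). Egr1, Nr4a1, Hspa1a, Jun, Zfp36, Btg2, Ier2, Nr4a2, Dusp1 and Jund rose by 0.60 to 1.51 on the log2 scale. Fos itself was at 14.71 to 14.96 in cerebellum and 13.37 to 14.59 in cerebrum and did not pass (log2 change 0.70, adjusted p = 0.1). The heat shock genes Hspb1, Dnajb1, Hsph1 and Hspa1b did not pass (log2 changes of 0.26 to 0.68). The labels give no time between death and isolation for either region. Without the replicate block 2 of the 25 passed, and without pair 4 also 2.

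Several single genes of inflammatory signalling, which form no list here, also rose. Il1b, the cytokine interleukin 1 beta, read 7.68, 8.01, 9.66 and 9.75 in cerebellum, against 3.52, 4.73, 7.04 and 6.15 in cerebrum (log2 change 3.42 ± 0.25, adjusted p = 0.00692). The inhibitors of NF-kappa-B of the nuclear kind, which this pathway itself induces, moved likewise. Nfkbid read 7.24, 6.85, 8.96 and 8.89 in cerebellum, against 4.56, 3.68, 6.24 and 5.61 in cerebrum (log2 change 2.96 ± 0.13, adjusted p = 0.00253). Nfkbiz read 10.77, 10.13, 11.54 and 11.49 in cerebellum, against 8.89, 8.27, 9.32 and 9.09 in cerebrum (4.26-fold, adjusted p = 0.00338). None of these groups overlapped, which the rule that named these genes required. Sbno2, a transcriptional regulator induced by interleukin 10, rose 5.07-fold (7.89 to 9.95 in cerebellum and 5.46 to 7.36 in cerebrum), and Socs3, a brake on cytokine signalling, rose 3.22-fold (adjusted p = 0.00253). Il1a rose by 1.47, Il33 by 1.37 and Il34 by 1.02 on the log2 scale. Socs3, Il1a, Il33 and Il34 were named after their values had been seen.

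Chemokine ligands, a family taken by symbol after values had been seen, had 6 rises and 0 falls among 19 genes tested. That is 31.6%, against 4.22% of all genes, and the median log2 change was 0.62. Cxcl2, an attractant of neutrophils, read 6.77, 5.61, 7.64 and 8.19 in cerebellum, against 3.45, 2.16, 4.32 and 4.13 in cerebrum (log2 change 3.54 ± 0.15, adjusted p = 0.00253). Cerebrum 2 lay at the lowest value of the array and cerebrum 1 below 4, which limits how well the size of this change is known. Ccl3 read 10.69, 9.60, 11.40 and 11.84 in cerebellum, against 7.66, 5.20, 9.69 and 9.06 in cerebrum (7.89-fold, adjusted p = 0.0287). Ccl4, Ccl12, Cxcl10 and Ccl2, attractants of monocytes and lymphocytes, rose by 2.45, 1.97, 1.81 and 1.01 on the log2 scale, and Cxcl1 did not pass (1.68, adjusted p = 0.0765). The constitutive chemokines Cx3cl1 and Cxcl12 had log2 changes of -0.15 and 0.02. Without the replicate block, and without pair 4, 1 of the 19 passed.
The windows of Cxcl2 and Il1b are printed for the letters near their starts.
Cxcl2, chr5:90903649-90903948, plus strand: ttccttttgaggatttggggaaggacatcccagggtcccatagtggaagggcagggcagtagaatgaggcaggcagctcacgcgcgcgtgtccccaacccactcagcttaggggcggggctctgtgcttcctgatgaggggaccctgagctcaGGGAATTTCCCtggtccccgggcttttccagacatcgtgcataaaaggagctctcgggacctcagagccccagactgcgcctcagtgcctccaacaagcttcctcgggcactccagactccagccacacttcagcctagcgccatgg
Il1b, chr2:129371090-129371389, minus strand: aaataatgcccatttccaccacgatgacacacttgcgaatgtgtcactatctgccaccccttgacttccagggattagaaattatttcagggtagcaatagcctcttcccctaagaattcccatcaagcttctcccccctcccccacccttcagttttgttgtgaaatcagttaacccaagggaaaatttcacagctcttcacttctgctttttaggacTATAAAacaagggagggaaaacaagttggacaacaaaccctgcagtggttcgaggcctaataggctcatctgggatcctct
Capitals mark, in Cxcl2, 2 overlapping kappa-B sites read on both strands, of which the first begins at position -97 from the start site, and in Il1b a TATAAA beginning at position -31. A kappa-B site stood in 5 of 17 windows of 14 chemokine ligands (29.4%), against 10.4% of windows of all genes, and TATAAA in 6 of 17 (35.3%), against 7.34%. The kappa-B site, like the family, was chosen after values had been seen. It stood in 12.4% of windows of genes higher in cerebellum and in 12.4% of those lower. A match is a description of letters.

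Of 26 interferon and antigen presentation genes 5 rose, 0 fell and 21 did not pass (19.2%, against 4.22% of all genes). The median log2 change was 0.38, and 24 of the 26 were positive. Ifit3 rose 1.60-fold (12.03 to 12.43 in cerebellum and 11.29 to 11.69 in cerebrum, adjusted p = 0.0409), Usp18 1.60-fold, Bst2 1.59-fold and Oas1a 1.48-fold. Ifi27 was the fifth. Without pair 1, 2 or 4 no member passed, and without pair 3 there was 1.

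Microglial genes moved in both directions. Of 21 microglia and macrophage genes, 3 fell and 3 rose (28.6%, against 4.22% of all genes), with a median log2 change of -0.26. P2ry12, a purine receptor of resting microglia, read 11.98, 10.97, 10.93 and 10.89 in cerebellum, against 12.99, 11.89, 12.81 and 13.04 in cerebrum (log2 change -1.49 ± 0.24, adjusted p = 0.0374). Tmem119, a microglial membrane protein, read 12.59, 11.31, 12.03 and 12.02 in cerebellum, against 13.40, 12.26, 13.56 and 13.56 in cerebrum (-1.21 ± 0.15, adjusted p = 0.0229). Cx3cr1, the receptor for Cx3cl1, read 12.62, 11.93, 12.49 and 12.51 in cerebellum, against 13.25, 12.86, 13.96 and 13.61 in cerebrum (-1.03 ± 0.14, adjusted p = 0.0285). All 3 were lower in cerebellum in each pair, and the groups of Cx3cr1 did not overlap.
The rises were Cd14, a co-receptor for bacterial lipopolysaccharide (2.02-fold), Lyz2, the lysozyme of myeloid cells, and Cd163, a scavenger receptor of perivascular macrophages. Csf1r, the receptor on which microglia depend, was at 15.13 to 15.69 in cerebellum and 15.42 to 15.88 in cerebrum (log2 change -0.20, adjusted p = 0.215), near the top of the scale, and its 2 dimmer probe sets had log2 changes of -0.58 and -0.85. The complement genes C1qa, C1qb and C1qc had changes of -0.37 to -0.26 that did not pass. The level of the list was 9.71 to 10.49 in cerebellum and 9.57 to 10.86 in cerebrum. Single genes outside the list that are also known from microglia or other myeloid cells moved in both directions. P2ry13 read 11.90, 10.82, 12.04 and 12.04 in cerebellum, against 12.95, 12.12, 13.41 and 13.46 in cerebrum (-1.29 ± 0.08, adjusted p = 0.00553). Fcrls, a scavenger receptor relative, read 9.77, 9.84, 11.17 and 10.41 in cerebellum, against 12.09, 11.31, 13.32 and 12.996 in cerebrum (-2.13, adjusted p = 0.0107). Crybb1, named as a lens crystallin and also made by microglia, fell by 2.21 on the log2 scale, and Bank1, an adaptor first known from B cells, fell by 2.198. Slc2a5, a fructose carrier, Sall1, a transcription factor of microglia, and Siglech, a lectin, fell by 2.14, 1.11 and 1.08 on the log2 scale, and these 3 were named after their values had been seen. Clec7a, Cst7, Cd72 and Gpr84, named likewise after their values had been seen, rose by 2.04, 1.86, 1.35 and 1.06 on the log2 scale. Without the replicate block 0 of the 21 list genes passed in limma. With any 1 pair left out 0 of them fell and at most 1 rose, and P2ry12, Tmem119 and Cx3cr1 passed in none of these 4 fits.

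Astrocyte genes were split as well, with 4 rises and 4 falls among 20 (40%, against 4.22% of all genes). The water channel of the vascular end-foot, Aqp4, read 8.93, 9.37, 8.74 and 8.72 in cerebellum, against 7.53, 7.68, 7.09 and 7.06 in cerebrum, and was 3.03-fold higher (log2 change 1.60 ± 0.08, adjusted p = 0.00253). Its companion at the end-foot, the potassium channel Kcnj10, rose 1.63-fold (adjusted p = 0.0125), as did S100b and Slc4a4. The glutamate carriers went the other way. Slc1a3 read 7.69, 7.48, 8.11 and 7.63 in cerebellum, against 9.65, 9.21, 9.69 and 9.58 in cerebrum (-1.80 ± 0.09, adjusted p = 0.00272). Slc1a2 read 10.85, 11.03, 11.09 and 10.79 in cerebellum, against 12.27, 12.52, 12.42 and 12.29 in cerebrum (-1.44 ± 0.06, adjusted p = 0.00253). For each of these 3 genes the groups lay apart, which the rule that named Slc1a3 and Slc1a2 required. Mlc1, a membrane protein of astrocyte junctions, fell by 1.09 and Gpc5, a glypican, by 0.96 on the log2 scale. Dio2, the deiodinase with which astrocytes activate thyroid hormone, read 6.54, 6.23, 6.85 and 6.57 in cerebellum, against 8.28, 8.21, 8.71 and 8.32 in cerebrum (-1.83 ± 0.07, adjusted p = 0.00253).
Of 8 Bergmann glia genes 2 rose, A2m (4.15-fold) and Hopx (2.52-fold), and 1 fell, which was Slc1a3. Of 9 oligodendrocyte genes 3 fell and 1 rose. Mobp, a myelin protein, read 7.85 to 8.48 in cerebellum and 8.73 to 10.17 in cerebrum (-1.24, adjusted p = 0.0264). Mbp, the myelin basic protein, fell by 0.68, although another of its probe sets read 0.28 higher in cerebellum. Cspg5, a chondroitin sulphate proteoglycan, read 2.18 on each cerebellum array and 3.95 to 5.69 in cerebrum (adjusted p = 0.022), and the rise was Pdgfra.

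Neuronal transcripts were dim: the mean over 11 general neuronal genes was 5.19 to 5.39 in cerebellum and 4.91 to 5.43 in cerebrum. Of 7 granule cell genes tested 3 rose and 4 did not pass (42.9%, against 4.22% of all genes). Only 4 of the 7 had a positive change, and the lowest log2 change was -2.11, which did not pass. The rises included Gabra6, described above (adjusted p = 0.0119), and Zic1. Neurod1, a transcription factor, rose as well (3.33 to 4.28 in cerebellum and 2.46 to 2.58 in cerebrum, adjusted p = 0.049). Zic1, a zinc-finger factor that brain pericytes also express, was bright in both regions (12.05 to 12.29 in cerebellum and 11.50 to 11.88 in cerebrum, 1.41-fold, adjusted p = 0.022). The granule cell gene Cbln1 stayed at or below 2.93 on all 8 arrays and the Purkinje cell gene Pcp2 at or below 3.67, both under the level needed for a test. Of 5 Purkinje genes Car8 rose (1.94-fold). Among the general neuronal genes 1 of 11 rose, Uchl1 (1.84-fold), and among 13 forebrain neuron genes 1 rose, Ppp1r1b (3.66-fold), which was highest in cerebellum 1 and 2. These shares, 9.09% and 7.69%, each rest on 1 gene and stand beside 4.22% of all genes. The guidance list had 2 rises and 1 fall among 37 genes (8.11%, against 4.22% of all genes). Sema3b, a secreted semaphorin, rose 5.52-fold (6.59 to 8.92 in cerebellum and 4.94 to 6.38 in cerebrum, adjusted p = 0.0339), Sema6d rose 1.42-fold and the ephrin Efna1 fell by 0.49.

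Genes that pattern the neural tube gave few tested members. The midbrain and hindbrain factors En1 and En2 were at 2.16 on all 8 arrays and Hoxa2 stayed at or below 2.55. Among 7 such genes tested 2 rose, Zic1 and Meis1 (4.04 to 4.49 in cerebellum and 3.19 to 3.24 in cerebrum, adjusted p = 0.0144), and among 3 Hox genes tested 0 passed in limma (1 at an unadjusted p under 0.05), with Hoxa5 at a log2 change of -0.01. The forebrain list did not lean to cerebrum: Nr2f1, an orphan nuclear receptor, rose 1.48-fold, and Otx2, which choroid plexus also expresses, rose 3.25-fold (11.69, 11.55, 9.56 and 10.16 in cerebellum, against 8.9965, 9.67, 8.38 and 9.12 in cerebrum).
Larger regional differences were seen for genes outside these lists, which were named for the size of their change among all genes. Pantr1, a long noncoding RNA next to the neural factor gene Pou3f3, read 4.17, 4.37, 4.36 and 4.37 in cerebellum, against 6.90, 6.47, 6.99 and 7.00 in cerebrum (-2.52 ± 0.12, adjusted p = 0.00253). Alx1, a homeobox gene of cranial mesenchyme, read 2.17 or 2.18 on each cerebellum array, against 4.92, 5.18, 4.48 and 6.26 in cerebrum (adjusted p = 0.0124). Ebf2, a helix-loop-helix factor, was opposite, at 5.69, 5.69, 4.40 and 5.03 in cerebellum, against 3.08, 2.21, 2.16 and 3.00 in cerebrum (adjusted p = 0.0124). The groups of each of these 3 genes lay apart, which the rule that named them required. Esrrg, an orphan nuclear receptor, read 4.14 to 6.03 in cerebellum and 2.24 to 2.99 in cerebrum (adjusted p = 0.022). The sulphotransferase Chst2 read 2.76 to 3.53 in cerebellum and 5.05 to 6.03 in cerebrum (adjusted p = 0.00553), and the sialyltransferase St6galnac5 2.16 in cerebellum and 3.94 to 4.73 in cerebrum (adjusted p = 0.00678).

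Ddn (dendrin), a dendritic protein of forebrain neurons, read 2.23, 2.23, 2.16 and 2.16 in cerebellum, against 5.65, 5.95, 5.34 and 6.13 in cerebrum (log2 change -3.57 ± 0.14, adjusted p = 0.00253). Of 5 granins, proteins of hormone and neuropeptide granules taken as a family after values had been seen, 3 were lower in cerebellum, 0 were higher and 2 did not pass. Chga read 2.16 to 2.21 in cerebellum, against 6.45, 6.84, 4.49 and 6.26 in cerebrum (adjusted p = 0.0151). Chgb read 3.06 to 3.51 in cerebellum, against 6.68, 9.71, 9.61 and 5.94 in cerebrum (adjusted p = 0.0345), and Scg3 8.35 to 8.85 in cerebellum and 9.81 to 10.16 in cerebrum (adjusted p = 0.00411). Chgb was highest on cerebrum 2 and 3, the arrays with the high pituitary signal. On cerebrum 1 and 4 Chgb exceeded each cerebellum array as well. There the mean of the 7 pituitary genes was 3.93 and 3.70, against at most 3.36 in cerebellum. The part of the pituitary in the granin changes was not tested. Scg2 did not pass (log2 change -3.96, adjusted p = 0.106), nor did Scg5, which had the opposite sign (log2 change 0.59, adjusted p = 0.711). Nrsn1, a neuronal membrane protein, read 2.18 to 2.68 in cerebellum and 3.76 to 5.91 in cerebrum, and Kif5a, a neuronal kinesin, 6.37 to 6.77 in cerebellum and 7.82 to 8.96 in cerebrum.

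Genes of cilia and ventricular epithelia were higher in cerebellum with wide spread. All 12 choroid plexus and ependyma genes had a positive change, with a median of 1.41, and 2 passed (16.7%, against 4.22% of all genes). These were Otx2 and Dynlrb2, a dynein light chain (8.21, 8.19, 7.03 and 7.98 in cerebellum, against 5.53, 6.09, 5.56 and 6.30 in cerebrum, 3.95-fold, adjusted p = 0.0151). Kcnj13, Sostdc1 and Slc4a5, bright in choroid plexus and named after their values had been seen, had log2 changes of 1.34, 1.65 and 2.10 that did not pass (adjusted p = 0.0798, 0.0595 and 0.0563). Ttr, the main secreted protein of that tissue, differed by 0.16. Of 18 axoneme genes taken by symbol, a family chosen after values had been seen, 4 rose (Drc3 4.62-fold, Cfap52 4.03-fold, Cfap126 3.18-fold and Rsph1 3.02-fold) and the median was 0.79. Drc3 read 7.79, 7.59, 5.87 and 6.03 in cerebellum, against 4.39, 5.39, 4.00 and 4.68 in cerebrum, so that pairs 1 and 2 were the high ones, as for the choroid plexus list. In a fit with the mean of 7 choroid plexus genes as a covariate beside the block, 0 genes of the whole comparison passed in limma (802 at an unadjusted p under 0.05). In that fit the median was -0.01 for the choroid plexus and ependyma list, 0.01 for the axoneme genes (10 of 18 positive) and 0.72 for the pericyte list. The 7 genes belong to the choroid plexus and ependyma list, so its median near 0 was set by the choice of covariate. That list was higher in cerebellum in each pair, so the fit cannot separate region from choroid plexus signal. The part of this tissue in any list was not tested.

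Other large rises belonged to no list. Fabp3, a fatty acid binding protein, read 9.65, 9.58, 7.47 and 8.87 in cerebellum, against 5.70, 5.38, 5.36 and 5.76 in cerebrum (10.1-fold, adjusted p = 0.0161). Serpinb1b, a protease inhibitor, rose 8.68-fold (7.33 to 8.80 in cerebellum and 4.13 to 6.08 in cerebrum). Dpep1, a membrane dipeptidase, rose 5.34-fold, Sod3, the extracellular superoxide dismutase, 5.06-fold, and Moxd1, a monooxygenase relative, 4.69-fold (8.84 to 10.43 in cerebellum and 6.81 to 7.97 in cerebrum, adjusted p = 0.00843). Tmem108 rose 4.68-fold, Abca4, a retinoid transporter of the ABC family, 4.39-fold, and 1110017D15Rik read 5.28 to 7.01 in cerebellum and 3.61 to 4.68 in cerebrum. The groups of each of these 8 genes lay apart, which the rule that named them required.

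The remaining lists held few passes. The share was 15.8% for Notch, 7.69% for TGF-beta and BMP, 17.65% for potassium channels and 14.3% for serpins and growth factors. Over all genes it was 4.22%. For Notch 3 of 19 rose (Notch3, Heyl and Nrarp), for TGF-beta and BMP 1 of 26 rose (Bmp5) and 1 fell (Chrdl1, a BMP antagonist at 3.19 to 3.29 in cerebellum and 3.80 to 4.20 in cerebrum). For potassium channels 3 of 17 rose (Kcnj8, Kcnj10 and Kcnmb1), and for secreted serpins and growth factors 3 of 21 (Igfbp2, Ccl2 and Igf2). In limma, 0 of 18 hypoxia and glycolysis genes passed (5 at an unadjusted p under 0.05), 0 of 13 cell division genes (2) and 0 of 5 blood leukocyte and red cell genes (1). The brightest members of these lists included Ndrg1 at a log2 change of -0.02, Pcna at 0.20, Mcm6 at -0.01, Ptprc at 0.18 and Coro1a at -0.28. Clu and Tm4sf1, the brightest arterial genes, had changes of 0.25 and 0.12.

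**Figure D4:**
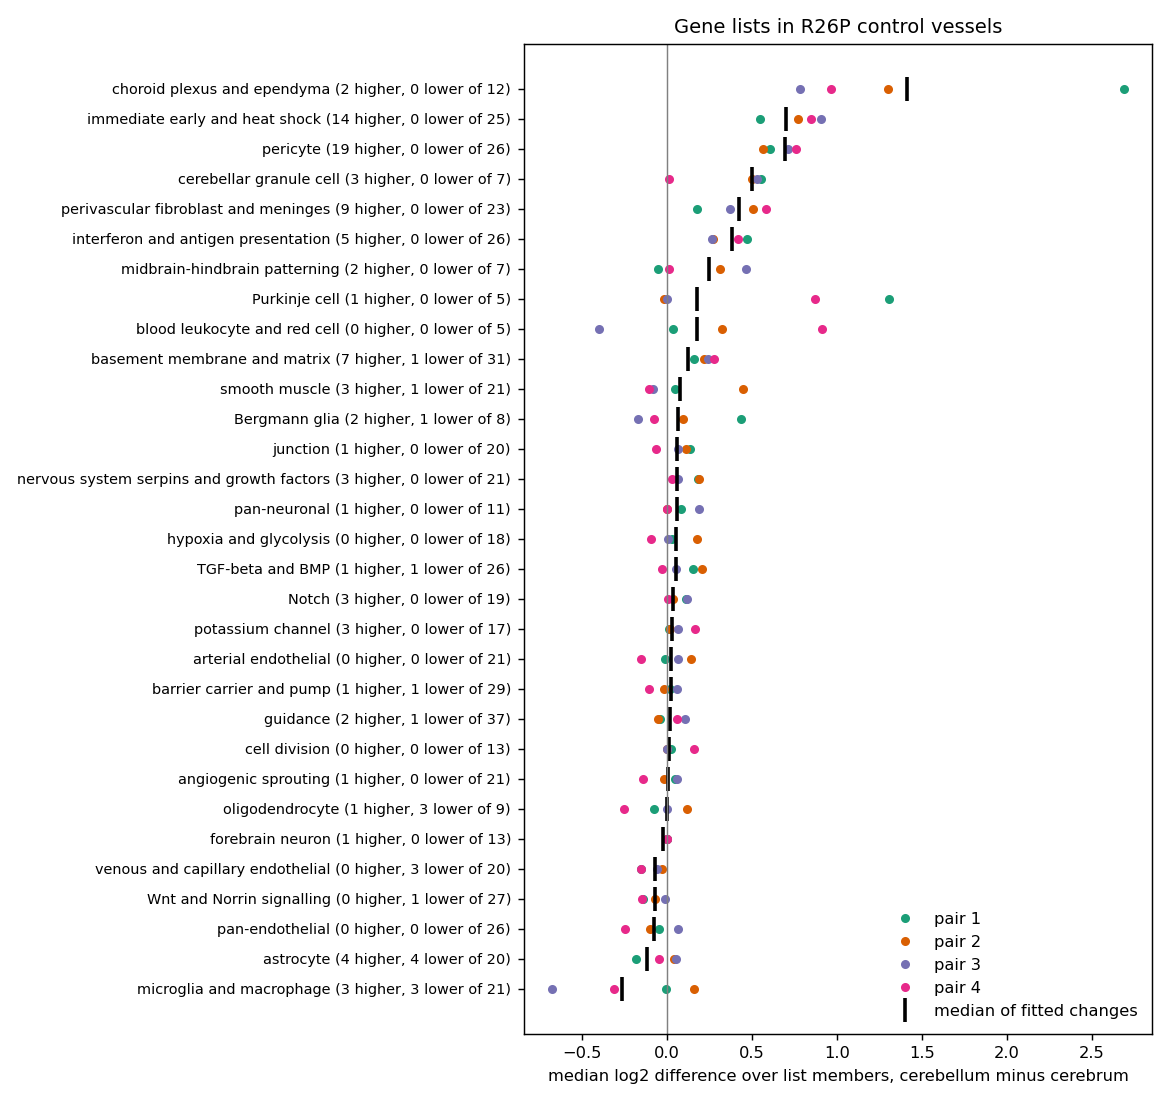
Median log2 difference, cerebellum minus cerebrum (x axis), over the tested members of each list (y axis; pituitary, the families taken by symbol and lists of fewer than 5 tested genes are not drawn). Coloured points are the 4 pairs, the black tick is the median of the fitted changes, and the row labels give the genes that passed. The choroid plexus, immediate early, pericyte, fibroblast and interferon lists lie right of 0 in all 4 pairs, while endothelial and barrier lists lie near 0.

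The same comparison in wild-type mice, of another strain and normalised apart from the R26P arrays, gives a second set of animals. There 135 genes passed (1.20% of those tested) in 3 pairs. Of the 475 genes that passed in R26P controls, 445 (93.7%) had the same direction in wild type, against 63.7% of all genes tested, and 376 had it in all 3 wild-type pairs. The genes past the threshold in both, each time in the same direction, were 70, which is 14.7% of the R26P control genes and 51.9% of the wild-type genes, and 0 passed in opposite directions. Markers of other tissues leaned the same way in wild type. The median log2 change there was 1.11 for choroid plexus and ependyma (12 of 12 positive), 0.61 for axoneme genes (15 of 18) and -1.33 for pituitary (0 of 7). Their part in the shared directions was not tested.
Cxcl2, Fosb, Nfkbid, Nfkbiz, Lum, Lamb1, Kcnj8, Abcc9 and Foxs1 were among those that passed in both. The wild-type log2 change was 4.01 for Cxcl2 (adjusted p = 0.0283), 3.30 for Fosb (0.0283), 0.84 for Kcnj8 (0.0443) and 0.97 for Abcc9 (0.0398). Pericyte genes had a median of 0.46 in wild type, with 5 of 26 higher and 23 positive, and immediate early genes a median of 0.54, with 7 higher and 1 lower of 25. Dkk3 and Fcrls fell there too (-0.97 and -1.26). Some groups stood elsewhere in wild type. Interferon genes had a median of -0.07 there, and Ccl4, Ccl12, Cxcl10 and Ccl2 had log2 changes of 0.17, 0.30, -0.03 and 0.14, none past the threshold. The difference between the 2 sets of mice was not tested, since strain, normalisation and perhaps age go with it.

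**Figure D5:**
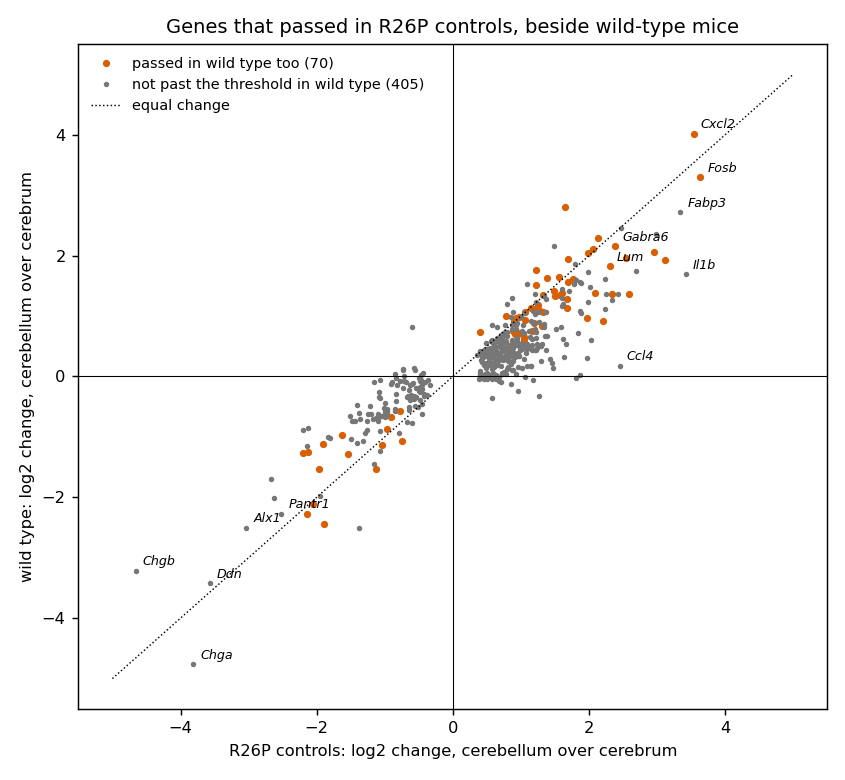
Log2 change, cerebellum over cerebrum, in R26P controls (x axis) and in wild-type mice (y axis) for the 475 genes that passed in R26P controls. Orange points are the 70 that also passed in wild type, and the dotted line marks equal change. Most points lie in the quadrants of equal sign (445 of 475), and Ccl4 lies near 0 on the y axis.

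In R26P mutants, which the study uses as a pericyte-deficient model, 0 genes passed between the regions in limma (1596 at an unadjusted p under 0.05). The region change differed between mutants and controls for 29 genes (0.258% of those tested). It was lower in mutants for 18, such as Ebf2 (difference -2.57 ± 0.28, adjusted p = 0.0149), Ano4, St8sia1, Tmem182, Aldh1a1 and Grm7, and higher for 11, such as Alx1 (2.89 ± 0.33, adjusted p = 0.0152), Cspg5, St6galnac5, Chst2, Pantr1 and Dkk3. Ebf2 was at 2.16 to 2.24 in mutant cerebellum and 2.16 in mutant cerebrum, so the regional difference seen in controls was missing there. Alx1 stood at 2.17 to 2.18 in mutant cerebellum and 2.22 to 2.38 in mutant cerebrum. The pericyte list had a median change of 0.88 in mutants, with 26 of 26 positive. In limma 0 of its 26 genes differed between mutants and controls. With 0.258% of all genes differing, that count is near the share of all genes and says little about the list. In mutant pair 3 the array labelled cerebellum carried pituitary transcripts as well (Gh at 14.75, against 14.89 on its partner labelled cerebrum), so the region labels of that pair are not settled, and without it 13 genes differed.

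Probe sets and promoter letters were compared last. Of 39 further probe sets of named genes that passed, 36 had the same direction, the exceptions being those of Mbp and Slc15a2. Among the letters planned, CAGCTG stood in 20.3% of promoter windows of genes higher in cerebellum and in 24% of those lower, against 15.1% of all windows. TATAAA stood in 13% and 14.7%, against 7.34%. TAATTA, the core of many homeodomain sites, stood in 3.67% and 4.65%, against 2.56%, and CTTTGAT, the core of TCF sites, in 1.98% and 5.43%, against 2.52%. Windows were found for 269 of the 349 higher and 94 of the 126 lower genes.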

How the data were processed

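RNA of brain microvascular fragments was hybridised to Affymetrix mouse arrays of 45101 probe sets. The deposited values are log2 signals that the authors computed with GCRMA 2.6.0 in R 2.4.1, per the submitters' processing notes. GCRMA subtracts background by probe sequence, quantile-normalises and summarises, so dim probe sets pile up at a shared lowest value and folds against that value are uncertain. Signals of different probe sets were not compared as levels of their genes.

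The platform annotation gives 34958 probe sets a single gene, 932 several and 9211 none. For each of 18194 genes the brightest such probe set, by its average across the 30 arrays, was kept, and 11243 genes above 4 on at least 3 arrays were tested. Region was tested by linear models in limma (version 3.58.1, under R 4.3.3) using lmFit followed by eBayes, the replicate number being a block, and p-values were adjusted over all genes tested by the Benjamini-Hochberg method at 0.05. The wild-type and mutant arrays were fitted in the same way, and the difference between mutants and controls as an interaction. P-values measure the spread between these samples. The pairing was checked: deviations from the group means correlated at 0.479 to 0.650 between arrays of the same number and at -0.443 to 0.323 between arrays of different numbers. Simulated data were made for the 11243 genes, with changes put only into genes whose mean was above 6. Of these, 30% of those changed by 0.5 on the log2 scale and 88% of those changed by 1 were recovered. False calls made up 4.22% of the calls made. The simulated noise was normal, without a lowest value, so recovery of dim genes was not measured.

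Named genes are the largest changes in either direction with groups that did not overlap (14 each way among genes above 4 on all 8 arrays and 8 each way among the others), up to 4 passing members of each list or its 2 brightest where none passed, the 6 largest differences each way between mutants and controls, and a fixed set of checks. Further members of lists were named after their values had been seen, and so were the families of chemokine ligands, axoneme genes and granins. The comparison and the lists were chosen with earlier results of these data known. Alternatives covered the block, left-out pairs, the filter, the choice of probe set, the prior, normalisation, a paired t-test, the pituitary and choroid plexus signals and the inclusion of the mutants.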

Additional observations from a re-analysis of the deposited data

Results flagged for a closer look

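A single array stood apart from the other 3 of its region in 26 of 298 groups of 4 arrays checked, where chance flags about 1 in 20. Some of these gaps were narrow. Chga at 2.16 and Scg2 at 2.18 were the lowest of cerebellum, Gh at 2.85 the highest of cerebellum, and St8sia1 at 2.18 the highest of cerebrum. Gaps of the same kind were seen for Pantr1 at 4.17 and Grm7 at 5.95 (lowest in cerebellum), Oas1a at 11.85 (highest in cerebellum), Meis1 at 3.19 and Ccl2 at 4.04 (lowest in cerebrum), and Lamb1 at 7.67, Notch3 at 12.23 and Efna1 at 9.76 (highest in cerebrum).

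Other gaps were wider. Xist was lowest in pair 1, the male pair, at 2.16 in cerebellum and 2.32 in cerebrum. Slc15a2 was highest at 9.22 in cerebellum and 9.69 in cerebrum. In cerebellum, P2ry12 was highest at 11.98, against 10.89 to 10.97 on the other arrays, and P2ry13 was lowest at 10.82. Neurod1 at 4.28, Uchl1 at 8.40 and Mcm6 at 9.82 were high in cerebellum. In cerebrum, Tmem119 at 12.26, Siglech at 8.46 and Hoxa5 at 5.06 were low, and Dpep1 at 5.90 and Aldh1a1 at 10.66 were high.

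The region change differed between R26P mutants and controls, by the interaction term in limma, for 15 genes named in the text. It was higher in mutants than in controls by 2.89 for Alx1, 2.63 for Cspg5, 2.12 for St6galnac5, 1.81 for Chst2, 1.77 for Pantr1, 1.59 for Dkk3, 0.98 for Slc1a3 and 0.93 for Htra3, all on the log2 scale. It was lower in mutants than in controls for Ebf2 (-2.57), Ano4 (-1.97), St8sia1 (-1.67), Tmem182 (-1.51), Aldh1a1 (-1.48), Grm7 (-1.39) and Uchl1 (-1.03).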

How the results depend on the processing

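The 475 genes that passed kept their direction in each alternative with 1 value per gene in which they were tested. For left-out pairs this follows from all 4 pairs having moved the same way. A missing or random block, the filters, the prior, the paired t-test and the model of all 16 R26P arrays leave the estimated change of a gene as it was. Direction could not differ there. It could have differed only with the mean of probe sets, renewed quantile normalisation and the covariates. With every probe set tested, other probe sets of Mbp and Slc15a2 had the opposite sign. Their number varied. With no replicate block, that is without the paired design, 132 genes passed (126 of them shared with the 475), and with the replicate block as a random term 758 did. Leaving out a replicate gave 37 to 159 genes, the lowest without pair 4. All 16 R26P arrays in the model gave 1030, a filter at a mean above 6 gave 758 of 9345, and a trended, robust prior gave 888. The count was 0 with no expression filter over 18194 genes (limma, 2381 at an unadjusted p under 0.05) and 0 with the paired t-test (1859). It was also 0 in 3 alternatives chosen after seeing the data: without the pairs of high pituitary signal (1491), with the pituitary covariate (1298) and with the choroid plexus covariate (802). The first of these rests on 4 arrays. The mean of probe sets gave 409, every probe set 374 and renewed quantile normalisation 642 (408 higher and 234 lower, against 349 and 126). Of 121 named genes that passed, 20 passed without any 1 pair and 42 passed in none of these 4 fits. With no replicate block 238 genes passed in wild type, 0 in mutants (621 at an unadjusted p under 0.05) and 13 in the difference between mutants and controls. That difference had 13 genes as well without mutant replicate 3. Causes of these shifts were not tested. The array's lowest value limits the size of changes for dim genes.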
